A study of Mus musculus with 48 samples.

Results

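The comparison described here was between the dentate gyri opposite the injected side of mice 7 days after kainate and the same region in saline-injected mice, 8 of the 48 libraries of the series, each from a separate mouse. The members were chosen by labels alone, as the 4 contralateral kainate libraries and the 4 contralateral saline libraries of that day, and no measured value entered the choice. The mouse model was made by unilateral injection of kainate, an agonist of kainate-type glutamate receptors, into the hippocampus of wild-type C57BL/6J mice (6 to 8 weeks of age in the sample records, 2 males and 2 females per group), with saline as the control injection and dorsal dentate gyri taken from both hemispheres after 3, 7 or 14 days. All mice of both groups had the needle placed, all kainate mice had behavioral seizures on the day of injection by the study's methods, and neither group carried a transgene. The injected side is called the epileptogenic zone (EZ) and the opposite side, to which seizures spread, the peri-ictal zone (PIZ). Mice 23, 26, 21 and 35 had received kainate and mice 89, 33, 20 and 34 saline, and values are given in that order of mice throughout.

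The dentate gyrus is the gate through which cortical input enters the hippocampus. Its principal neurons, the granule cells, are normally hard to drive, and new ones are made throughout life from stem cells in the subgranular zone. After a seizure, microglia and astrocytes take on reactive states in which they express complement, chemokines and antigen-presenting molecules. Interferons are secreted cytokines that act through JAK kinases and STAT and IRF transcription factors to switch on a large set of antiviral genes, and interferon-gamma in addition induces guanylate-binding proteins (GBP) and immunity-related GTPases (IRG).

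Each PIZ library held between 18951900 and 23472422 counts assigned to genes, and 21390 genes were tested. Prox1, the granule cell transcription factor, was present in all 8 libraries at 102 to 324 CPM (each gene's count as a rate per 1000000 counts of the library, after scaling by the trimmed mean of M-values, TMM). T cell genes Cd3e, Cd3g and Cd8a had 0 to 4 counts in any of the 8 libraries and were not tested. Xist was high in 2 mice of each group and near 0 in the other 2, as the design of 2 females and 2 males calls for. The library of kainate mouse 21 stood apart: its mean correlation with the other kainate libraries was 0.9777, against 0.9815 to 0.9849 for those, and the summed CPM of the 20 mature granule cell genes was 1024, against 1910 to 2053 in the other kainate mice and 2313 to 2745 in saline mice. It also held 3.76 CPM of the ependymal gene Ccdc153, which had no count in the other 3 kainate libraries, and 87.5 CPM of the fibroblast gene Dcn, against 8.09 to 16.7 CPM in those. The counts of DEG are therefore given with and without mouse 21, as are values of several gene lists.

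In the PIZ at day 7, 43 differentially expressed genes (DEG) were found, at a Benjamini-Hochberg adjusted p under 0.01 in edgeR's quasi-likelihood test and a fold change over 1.5. Of these, 32 were upregulated (0.150% of the genes tested) and 11 downregulated (0.0514%), or 0.201% in all. The upregulated genes had a median log2 fold change of 1.99, and 16 of the 32 changed more than 4-fold. The downregulated genes changed less, with a median of -0.67, and 9 of the 11 stayed under 2-fold. The median of all tested genes was 0.0089. In each of the 43 DEG the 4 kainate mice lay outside the range of the 4 saline mice. This was also so for 1633 of all tested genes in the higher direction (7.63%) and for 1126 in the lower direction (5.26%). At an unadjusted p under 0.05, 9.18% of all tested genes were higher and 5.33% lower, and the counts of list members at that level are to be read against these shares.

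Without mouse 21 the count of DEG was 76, of which 60 were upregulated, and 39 of the 43 were among them. Leaving out another mouse gave 33 DEG without mouse 23, 11 without mouse 26, 30 without mouse 35, 13 without mouse 89, 7 without mouse 33, 9 without mouse 20 and 7 without mouse 34. All 43 genes kept their direction in every one of those fits. With the mouse as a block, which pairs the PIZ library with the EZ library of the same animal, limma-voom, a change of tool as well, called 24 DEG, 15 upregulated and 9 downregulated, and 22 of them were among the 43. DEG that passed in each of the 8 fits without a mouse were Atp10b, Tmc6, Lag3, Fhip1a, Camkk2 and Gfra2.

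The DEG with the smallest p was Atp10b, which encodes a P4-type ATPase that moves lipids across membranes (ENSMUSG00000055415.9, chromosome 11, 43040704 to 43153112, GRCm39). Atp10b measured 3.13, 2.84, 3.26 and 1.97 CPM in the kainate mice and 0.743, 0.605, 0.822 and 0.883 CPM in the saline mice. The lowest kainate mouse was above the highest saline mouse, and the log2 fold change was 1.87 (SE 0.24, adjusted p = 3.44e-05). Tmc6, a transmembrane channel-like gene, measured 15.8, 20.6, 21 and 10.8 CPM after kainate and 4.56, 5.14, 4.82 and 5.04 CPM after saline. Saline mice were close together and kainate mice more spread, with all of them above the saline values (log2 fold change 1.80, SE 0.24, adjusted p = 5.11e-05).

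Lag3, an inhibitory immune receptor that binds MHC class II, measured 29.9, 45, 15.8 and 38.3 CPM after kainate and 5.35, 5.19, 5.31 and 4.21 CPM after saline. Mouse 21 was the lowest kainate mouse and still clear of the saline mice (log2 fold change 2.68, SE 0.39, adjusted p = 2.66e-04). The lncRNA 9630013A20Rik (ENSMUSG00000115529.2, chromosome 14) measured 12.9, 11.7, 11.6 and 11.6 CPM after kainate and 3.07, 2.12, 3.78 and 2.49 CPM after saline, so that it was among the most even of the DEG across kainate mice (log2 fold change 2.06, SE 0.34, adjusted p = 9.68e-04). Anks1 rose from a mean of 29.3 ± 3.68 CPM (SD, n = 4) to 44.5 ± 4.68 CPM, and Smyd4 from 14 ± 0.941 CPM to 21.5 ± 0.902 CPM. Their log2 fold changes were 0.60 and 0.63, the sizes of the smaller upregulated DEG, and neither gene overlapped between groups. Megf6, which encodes a protein with multiple EGF-like domains, measured 16.3, 10.2, 15.9 and 6.53 CPM after kainate and 3.72, 3.38, 3.51 and 2.6 CPM after saline, so the groups were apart by 1.89 on the log2 scale (SE 0.32, adjusted p = 0.00151).

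**Figure D1:**
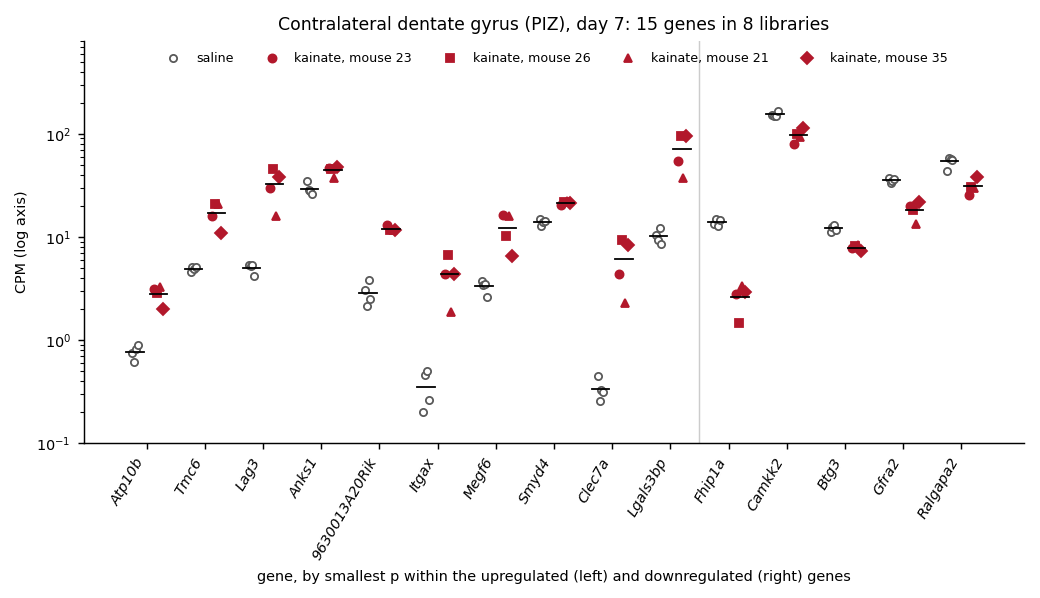
CPM on a log axis of the 10 upregulated (left) and 5 downregulated (right) DEG with the smallest p, in each of the 8 PIZ libraries of day 7, with open circles for saline mice, a filled symbol for each kainate mouse and a bar at each group's mean. The groups do not overlap in any of the genes, and mouse 21 (triangle) is the lowest kainate mouse in 7 of them, among them Lag3, Itgax, Clec7a and Lgals3bp.

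Of the 14 DEG that belong to a gene list, all upregulated, 8 are interferon-stimulated genes. All 32 listed type I interferon-stimulated genes had a higher mean after kainate, all 32 with an unadjusted p under 0.05, against 9.18% of all tested genes in that direction. An adjusted p under 0.05 was reached by 20 of the 32, against 0.991% of tested genes, and 4 were DEG, or 7 without mouse 21. Their median log2 fold change was 2.15, and 2.40 without mouse 21. The summed CPM of the list was 293, 426, 233 and 592 in the kainate mice and 123, 109, 132 and 101 in the saline mice. The kainate mice thus differed more among themselves than the saline mice did, with mouse 35 highest and mouse 21 lowest, and the groups did not overlap.

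Lgals3bp, which encodes a secreted galectin-binding glycoprotein, measured 54.7, 94.3, 37.4 and 96.1 CPM after kainate and 10.4, 9.37, 12.2 and 8.57 CPM after saline (log2 fold change 2.80, SE 0.50, adjusted p = 0.00255). Oasl2, related to the 2'-5' oligoadenylate synthetases that sense double-stranded RNA, measured 14.4, 21.3, 9.6 and 49.6 CPM after kainate and 3.37, 3.48, 4 and 2.8 CPM after saline (log2 fold change 2.79, SE 0.57, adjusted p = 0.00901). Ifit3b, of the family of antiviral proteins with tetratricopeptide repeats, measured 16.3, 21.2, 12 and 37 CPM after kainate and 5.4, 3.73, 4.44 and 4.05 CPM after saline (log2 fold change 2.29, SE 0.45, adjusted p = 0.00633). In these 3 genes mouse 35 was the highest and mouse 21 the lowest of the kainate mice, as in the summed list. Ifi27, an interferon-induced mitochondrial protein gene, measured 37.8, 49.3, 41.6 and 52 CPM after kainate and 23.8, 18.2, 23.6 and 14.5 CPM after saline, a smaller difference of 1.17 on the log2 scale (SE 0.24, adjusted p = 0.00947). Ifit3b is nearly identical to its neighbor Ifit3, and reads that map to both cannot be assigned with certainty. Ifit3 lay just past the threshold, with an adjusted p of 0.0122 and a log2 fold change of 2.27.

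Interferon-gamma inducible GTPases, which attack the membranes around intracellular pathogens, were higher in 19 of 19 tested members, 17 of them at an unadjusted p under 0.05, against 9.18% of all tested genes. Their median log2 fold change was 1.12, and 1.37 without mouse 21. Gbp3 measured 14.3, 18.6, 6.74 and 21.3 CPM after kainate and 4.06, 4.69, 4.99 and 3.01 CPM after saline (log2 fold change 1.86, SE 0.38, adjusted p = 0.00901). Gbp6 measured 4.4, 9.15, 4.07 and 15.2 CPM after kainate and 2.67, 1.31, 1.53 and 1.97 CPM after saline (log2 fold change 2.13, SE 0.44, adjusted p = 0.00901). Igtp, an IRG family member, measured 7.67, 10, 4.84 and 12.3 CPM after kainate and 2.87, 2.77, 2.9 and 2.29 CPM after saline (log2 fold change 1.68, SE 0.35, adjusted p = 0.00901). Mouse 35 was again highest and mouse 21 lowest in all 3. Gm43302, a further DEG, overlaps Gbp6 on chromosome 5 and had nearly the same values (log2 fold change 2.12), and reads of the 2 genes cannot be told apart. F830016B08Rik, listed with these GTPases, had 95 counts over the 4 kainate libraries and 2 over the 4 saline libraries. Its ratio scaled for library size was 41.7, with a 95% exact interval for counting error of 11.2 to 350. The 2 saline counts of F830016B08Rik were in mouse 20. When each mouse was left out in turn, its log2 fold change was 4.58 to 7.59 and it was a DEG in 1 of 8 fits. GBP and IRG genes lie in clusters of close copies, so the split of reads between members is uncertain.

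The start regions of the 4 DEG of the interferon lists with the smallest p among those the rule allowed are printed here because these genes rose together. Each runs from 250 bases before to 50 after the start of the gene's canonical transcript in Gencode. It is given 5′ to 3′ on the strand of the gene, on GRCm39. Capitals mark the core of the interferon-stimulated response element (ISRE), GAAANNGAA, on either strand. TTCNNNGAA, the gamma-activated sequence (GAS) bound by STAT dimers, reads the same on both strands and was searched too.
Lgals3bp promoter, chr11:118292869-118293168, minus strand: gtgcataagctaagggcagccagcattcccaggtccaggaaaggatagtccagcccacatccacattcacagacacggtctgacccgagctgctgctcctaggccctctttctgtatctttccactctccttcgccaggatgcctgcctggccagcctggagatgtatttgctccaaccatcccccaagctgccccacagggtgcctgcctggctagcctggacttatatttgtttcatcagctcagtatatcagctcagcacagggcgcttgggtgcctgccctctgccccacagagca
Ifit3b promoter, chr19:34585078-34585377, plus strand: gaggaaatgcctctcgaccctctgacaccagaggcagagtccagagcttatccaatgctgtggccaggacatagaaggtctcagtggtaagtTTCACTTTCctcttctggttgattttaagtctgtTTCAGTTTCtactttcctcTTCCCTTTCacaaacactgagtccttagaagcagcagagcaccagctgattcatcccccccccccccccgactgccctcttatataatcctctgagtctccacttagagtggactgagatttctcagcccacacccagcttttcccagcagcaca
Gbp6 promoter, chr5:105441782-105442081, minus strand: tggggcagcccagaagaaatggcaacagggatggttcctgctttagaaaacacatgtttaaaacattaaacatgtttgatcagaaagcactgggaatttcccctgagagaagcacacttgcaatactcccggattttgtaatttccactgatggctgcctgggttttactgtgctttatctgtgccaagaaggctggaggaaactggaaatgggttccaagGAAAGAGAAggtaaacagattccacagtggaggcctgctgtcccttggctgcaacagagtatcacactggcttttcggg
Oasl2 promoter, chr5:115034747-115035046, plus strand: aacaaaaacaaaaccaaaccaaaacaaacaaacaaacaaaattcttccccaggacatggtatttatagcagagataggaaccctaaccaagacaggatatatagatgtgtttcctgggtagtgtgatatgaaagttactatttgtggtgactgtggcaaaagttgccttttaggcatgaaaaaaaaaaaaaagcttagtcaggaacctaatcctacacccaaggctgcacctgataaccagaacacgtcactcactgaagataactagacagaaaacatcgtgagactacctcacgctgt

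Ifit3b held 3 ISRE cores, all on the strand opposite the gene, beginning 158, 124 and 105 bases before the start. Gbp6 held 1, beginning 29 bases before the start, and the windows of Lgals3bp and Oasl2 held neither motif. Of 21262 tested genes with a window, 8.8% held the ISRE core and 7.53% held GAS, and 0.95% held both. Among the 32 upregulated DEG the ISRE core was in 7 (21.9%) and GAS in 2. Of the 8 DEG that belong to the interferon lists, 4 held the ISRE core and 1 held GAS. Over the whole lists, the ISRE core was in 18 of 32 type I interferon-stimulated genes and in 14 of 19 GTPases, and GAS in 4 and 9. None of the 11 downregulated DEG held the ISRE core. A match describes letters in a window and was not tested as a binding site.

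Upstream of these genes, the interferon receptors and their transcription factors had smaller differences. None of the 17 tested was a DEG, 5 were higher at an unadjusted p under 0.05 (9.18% of all tested genes), and the median log2 fold change was 0.46, or 0.27 without mouse 35. Jak1, a kinase of the interferon receptors, and Ifngr2, a receptor chain for interferon-gamma, have the largest mean CPM in the list, and their log2 fold changes were 0.10 (adjusted p = 0.512) and -0.033 (adjusted p = 0.909). The transcription factor Irf9 (1.09, adjusted p = 0.0212), named after its values were seen, came close to the threshold. The chemokine and cytokine list had no DEG among 25 tested, and 11 were higher and 1 lower at an unadjusted p under 0.05 (12 and 0 without mouse 21). Cxcl10, an interferon-induced chemokine also chosen after its values were seen, measured 2.01, 6.02, 1.18 and 5.62 CPM after kainate and 0.297, 0.101, 0.548 and 0.0519 CPM after saline (adjusted p = 0.0174). Without mouse 21, Irf9 and the chemokines Cxcl10 and Ccl5 were DEG, as were Ifit3 and Isg15.

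Antigen presentation genes included no DEG. In the class I presentation list 13 of 17 members were higher at an unadjusted p under 0.05, against 9.18% of all tested genes, with a median log2 fold change of 1.11, and without mouse 21 H2-Q4 was a DEG. The chaperones Calr (-0.032) and Canx (-0.0040), the members with the largest mean CPM, did not pass at an unadjusted p of 0.05 (adjusted p = 0.96 and 0.992). In the class II list all 12 had a higher mean, 8 at an unadjusted p under 0.05, with a median of 1.52, or 0.92 without mouse 23. Ctss, the protease that trims the class II invariant chain, measured 198, 250, 110 and 228 CPM after kainate and 72.2, 59.7, 73.4 and 56.8 CPM after saline (log2 fold change 1.58, adjusted p = 0.0445). The invariant chain Cd74, named after its values were seen, was at 32.7 CPM in mouse 23 and at 1.99 to 5.1 CPM in the other kainate mice, so that mouse 23 lay far above the others (saline 0.806 to 1.53 CPM, log2 fold change 3.14, adjusted p = 0.0316). Of the 6 immunoproteasome genes 4 were higher at an unadjusted p under 0.05, with none a DEG, while the 14 constitutive proteasome core genes had a median of -0.054 (-0.14 without mouse 23 and 0.030 without mouse 89).

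**Figure D2:**
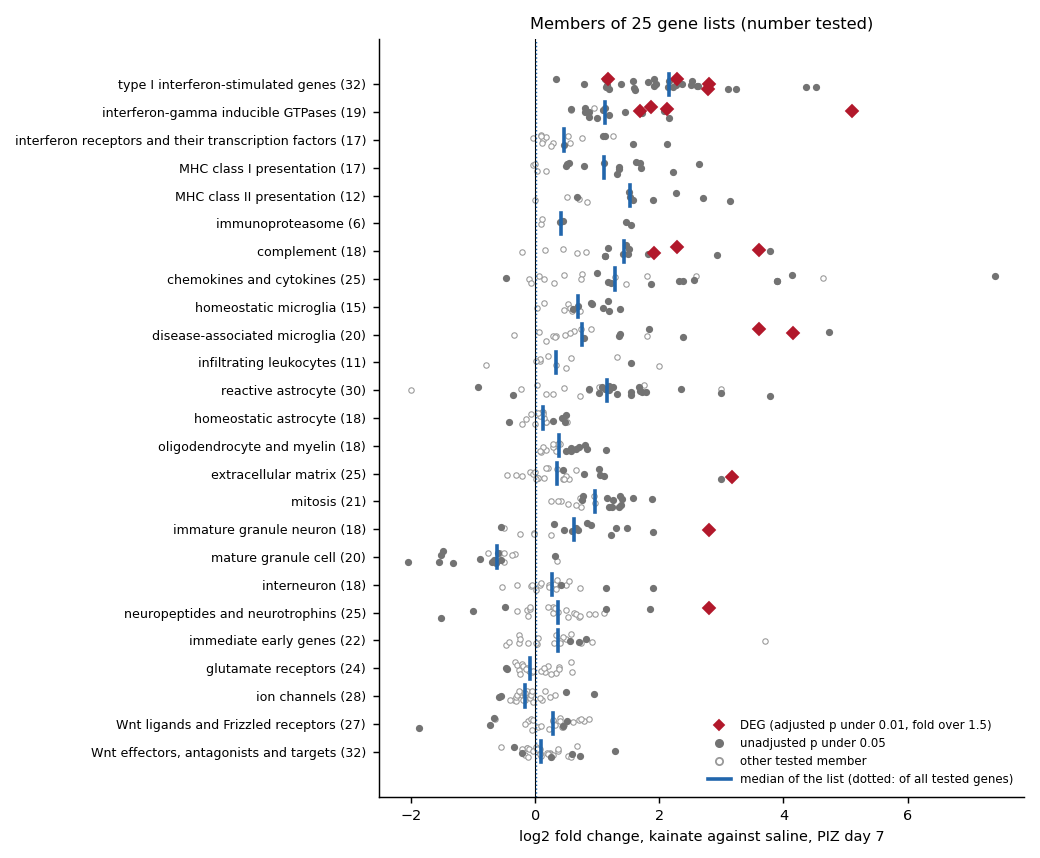
Log2 fold change, kainate against saline in the PIZ at day 7, of every tested member of the gene lists shown, as points, with red diamonds for DEG, filled grey points for an unadjusted p under 0.05, a blue bar at each list's median and a line at 0. The type I interferon list lies wholly above 0 with a median of 2.15, and the mature granule cell list lies mostly below 0 with a median of -0.62.

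Complement held the next set of DEG. Complement tags material for removal by phagocytes, and C4b and C4a encode the mouse forms of component C4, which lies downstream of C1q. C4b measured 121, 139, 65.2 and 172 CPM after kainate and 22.8, 25.7, 30.1 and 23.2 CPM after saline (log2 fold change 2.29, SE 0.41, adjusted p = 0.00255). C4a measured 34.4, 40, 18.2 and 47.1 CPM after kainate and 7.83, 9.52, 10.5 and 8.98 CPM after saline (log2 fold change 1.92, SE 0.38, adjusted p = 0.00728). The mice took the same order in both genes, which lie 65.2 kb apart on chromosome 17 and are close copies, so that reads may be split between them. C1qb, a chain of the initiating C1q molecule, measured 126, 143, 63.5 and 156 CPM after kainate and 51.2, 33.9, 49 and 44 CPM after saline (log2 fold change 1.46, adjusted p = 0.0872). In the whole list, 13 of 18 members were higher at an unadjusted p under 0.05 (9.18% of all tested genes) and the median log2 fold change was 1.43, or 1.64 without mouse 21.

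Itgax, the CD11c integrin chain that is counted both as a complement receptor and as a marker of disease-associated microglia, measured 4.4, 6.69, 1.86 and 4.37 CPM after kainate and 0.198, 0.453, 0.493 and 0.26 CPM after saline (log2 fold change 3.61, SE 0.61, adjusted p = 0.0013). Clec7a, the phagocytic receptor Dectin-1 and a marker of the same state, measured 4.35, 9.32, 2.26 and 8.26 CPM after kainate and 0.446, 0.252, 0.329 and 0.312 CPM after saline (log2 fold change 4.15, SE 0.74, adjusted p = 0.00255). Both genes were lowest in mouse 21 and low in all saline mice. The other 18 disease-associated microglia genes included no DEG, and 8 of the 20 were higher at an unadjusted p under 0.05, or 12 without mouse 21, against 9.18% of all tested genes. Apoe (0.63, adjusted p = 0.379) and Ctsb (0.34, adjusted p = 0.682), those with the largest mean CPM, did not pass, although all kainate mice were above all saline mice, as in 7.63% of all tested genes, and the list median was 0.76.

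None of the 15 tested homeostatic microglia genes was a DEG, 8 were higher at an unadjusted p under 0.05 (12 without mouse 21), against 9.18% of all tested genes, and the median log2 fold change was 0.69. Csf1r, the receptor that maintains microglia, had a log2 fold change of 0.91 (adjusted p = 0.114). P2ry12, a purinergic receptor of resting microglia, had 0.14 (adjusted p = 0.831). In bulk tissue, a difference in the number of cells of a type and in the RNA per cell cannot be told apart. Slamf8, a receptor of the SLAM family found on myeloid cells, had 81 counts over the kainate libraries and 9 over the saline libraries, a ratio of 7.91 with a 95% exact interval of 3.97 to 17.9 (adjusted p = 0.00901). For blood-borne leukocytes, 11 of 22 listed genes were tested. At an unadjusted p under 0.05, 1 was higher, a share near the 9.18% of all tested genes. Of the 11, 10 had a higher mean after kainate. The summed CPM of the list, Ptprc included, was 20.1 to 33.6 after kainate and 15.4 to 19.8 after saline. Ptprc, the pan-leukocyte gene that microglia also express, had a log2 fold change of 1.54 (adjusted p = 0.0519), and the monocyte gene Ly6c2 one of 0.015 (adjusted p = 0.986).

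Among astrocyte genes, Gfap, the intermediate filament of reactive astrocytes, measured 1565, 1151, 591 and 1370 CPM after kainate and 366, 311, 339 and 335 CPM after saline. All kainate mice were above all saline mice, yet the adjusted p was 0.0174 (log2 fold change 1.79, SE 0.40) and the gene was a DEG when mouse 21 was left out (log2 fold change 2.01, adjusted p = 0.00777). Of 30 reactive astrocyte genes, 17 were higher and 2 lower at an unadjusted p under 0.05 (16 and 0 without mouse 21), against 9.18% and 5.33% of all tested genes, with a median log2 fold change of 1.16. That list shares members with the lists of interferon-gamma inducible GTPases, immunoproteasome, class I presentation and complement, so its count is not separate from theirs. Serpina3n had a log2 fold change of 1.02 (adjusted p = 0.287). Of the genes that astrocytes express at rest, 4 of 18 were higher and 1 lower at that level, the lower count near the share of all tested genes, with a median of 0.12, or 0.064 without mouse 26. Clu, a secreted chaperone made by astrocytes, rose from 682 ± 50.5 CPM to 1068 ± 182 CPM (log2 fold change 0.65, SE 0.13, adjusted p = 0.00585), a smaller relative change than that of Gfap but an even one, with mouse 21 lowest at 841 CPM. Paqr6, a progestin membrane receptor gene, rose from 4.78 ± 0.352 CPM to 9.51 ± 1.76 CPM (log2 fold change 0.99, adjusted p = 0.00292).

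Col6a1, a chain of collagen VI, measured 42.1, 83.4, 132 and 26.5 CPM after kainate and 7.98, 7.81, 8.11 and 7.63 CPM after saline (log2 fold change 3.17, SE 0.65, adjusted p = 0.00901). It was highest in mouse 21, the library that also held the most Dcn, and the other kainate mice were also above all saline mice. Without mouse 21 its log2 fold change was 2.68 and it was not a DEG (adjusted p = 0.0203). The part that fibroblasts or other cells at the edge of the dissection had in this difference was not tested. Col6a1 was the only DEG of 25 extracellular matrix genes, whose median was 0.35, or 0.22 with no DEG without mouse 21. Sparc, a matrix-binding protein gene, measured 358 to 384 CPM after kainate and 166 to 207 CPM after saline (log2 fold change 1.02, adjusted p = 0.142). Rgma, a repulsive guidance molecule, rose from 24.8 ± 3.64 CPM to 37.9 ± 5.66 CPM (log2 fold change 0.61, adjusted p = 0.00845). Meningeal and fibroblast genes had a median log2 fold change of 0.43 (0.75 without mouse 23), with 5 of 15 higher at an unadjusted p under 0.05, or 3 without mouse 21, against 9.18% of all tested genes. Ependymal genes had a median of 1.34 that fell to 0.34 without mouse 21.

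Of 18 immature granule neuron genes, 12 were higher and 1 lower at an unadjusted p under 0.05 (10 and 0 without mouse 21), against 9.18% and 5.33% of all tested genes, and 1, Tac2, was a DEG, or 3 genes without mouse 21. The median of the list was 0.62, or 0.52 without that mouse. St8sia2 and Tmsb10, which are in no list, were chosen for full values after these were seen. St8sia2, which encodes the enzyme that adds polysialic acid to NCAM on immature neurons, measured 9.31, 9.03, 4.03 and 5.9 CPM after kainate and 2.63, 2.47, 2.14 and 3.06 CPM after saline (log2 fold change 1.45, SE 0.26, adjusted p = 0.00255). Tac2, the precursor of the neuropeptide neurokinin B, measured 15.8, 7.52, 2.99 and 5.14 CPM after kainate and 1.24, 1.36, 1.1 and 0.779 CPM after saline (log2 fold change 2.80, SE 0.56, adjusted p = 0.00728). The kainate mice were widely spread in Tac2, with mouse 23 highest and mouse 21 nearest the saline mice. Tmsb10, an actin-sequestering thymosin expressed in developing neurons, measured 68.6, 62.2, 31.9 and 35.5 CPM after kainate and 19.2, 25.3, 31.1 and 18 CPM after saline (log2 fold change 1.08, SE 0.22, adjusted p = 0.00901), so that mouse 21 lay just above saline mouse 20. Prox1 and Ncam1, the list members of largest mean CPM, had log2 fold changes of -0.55 (adjusted p = 0.319) and -0.016 (adjusted p = 0.939).

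Of 20 mature granule cell genes, 11 were lower and 1 higher at an unadjusted p under 0.05, or 8 and 1 without mouse 21. The shares of all tested genes were 5.33% lower and 9.18% higher, and none of the 20 was a DEG. An adjusted p under 0.05 in the lower direction was reached by 4 of the 20, against 0.369% of tested genes. Their median log2 fold change was -0.62, and -0.46 without mouse 21, whose library had the lowest summed level. Calb1, the calcium buffer of mature granule cells, was at 46.2 to 72.9 CPM after kainate and 130 to 166 CPM after saline (log2 fold change -1.33, SE 0.34, adjusted p = 0.0366). Dsp, a desmosomal gene that marks these cells, was at 10.2 to 77.3 CPM after kainate and 142 to 152 CPM after saline (log2 fold change -1.56, adjusted p = 0.156). Fam163b, with the largest mean CPM besides Prox1, had a log2 fold change of -0.51 (adjusted p = 0.605). The groups did not overlap in Calb1, Dsp or Prox1, as in 5.26% of all tested genes in the lower direction. C1ql2, a further granule cell marker, went the other way and overlapped. It was at 93.1 to 198 CPM after kainate and 90.3 to 148 CPM after saline (log2 fold change 0.35, adjusted p = 0.833).

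Mitosis genes included no DEG. All 21 mitosis genes had a higher mean after kainate, 12 at an unadjusted p under 0.05 (9.18% of all tested genes), with a median log2 fold change of 0.96. Ccnf, a cyclin of late cell cycle, measured 6.69, 8.4, 6.11 and 6.29 CPM after kainate and 4.41, 4.18, 3.83 and 3.95 CPM after saline (log2 fold change 0.75, adjusted p = 0.0193). Mki67, the proliferation marker, measured 8.37, 8.4, 2.35 and 8.21 CPM after kainate and 1.93, 2.77, 2.47 and 3.22 CPM after saline (log2 fold change 1.39, adjusted p = 0.152). Mouse 21 was within the saline range in Mki67 and the other kainate mice were far above it. Without that mouse the median of the list was 1.21 and 15 of the 21 had an unadjusted p under 0.05. Among S phase genes 5 of 20 were higher and 1 lower at that level (7 and 0 without mouse 21), against 9.18% and 5.33% of all tested genes, with a median of 0.22 (0.14 without mouse 23), and among stem cell and progenitor genes 6 of 17 were higher and 0 lower (8 and 2 without mouse 21), with a median of 0.32, or 0.17 without mouse 26.

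The 11 downregulated DEG fell in no list. Fhip1a, a subunit of a complex that links endosomes to dynein, had the largest fall: it measured 2.76, 1.46, 3.35 and 2.93 CPM after kainate and 13.2, 14.9, 12.6 and 14.5 CPM after saline (log2 fold change -2.39, SE 0.36, adjusted p = 3.49e-04). Gmnc, chosen for full values after these were seen, a geminin relative that starts multiciliated cell differentiation, measured 1.4, 0.46, 1.81 and 1.68 CPM after kainate and 3.37, 8.41, 5.92 and 7.37 CPM after saline (log2 fold change -2.23, SE 0.46, adjusted p = 0.00901). These were the downregulated DEG that changed more than 4-fold.

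Camkk2, the calcium-calmodulin kinase kinase that activates AMPK and CaM kinases, measured 79.9, 99, 93.8 and 114 CPM after kainate and 152, 149, 149 and 165 CPM after saline (log2 fold change -0.67, SE 0.11, adjusted p = 6.22e-04). Gfra2, the receptor for neurturin, measured 20, 18.2, 13.4 and 22 CPM after kainate and 36.8, 33.6, 34.9 and 36.3 CPM after saline (log2 fold change -0.95, SE 0.16, adjusted p = 9.68e-04). In both genes every kainate mouse lay below the lowest saline mouse. Btg3, an antiproliferative factor, measured 7.86, 8.06, 8.24 and 7.25 CPM after kainate and 11.1, 12.5, 13.1 and 11.6 CPM after saline (log2 fold change -0.62, SE 0.099, adjusted p = 6.22e-04). Ralgapa2, a subunit of the GTPase-activating complex for Ral, measured 25.3, 30.5, 29.9 and 38.4 CPM after kainate and 44, 58.8, 57.5 and 55.5 CPM after saline (log2 fold change -0.80, SE 0.14, adjusted p = 0.00218). The other downregulated DEG were Gstm3 (-0.67), a glutathione transferase, Tmem144 (-0.67), Irak1bp1 (-0.59), the formin Diaph1 (-0.61) and Map3k5 (-0.59), the stress kinase ASK1. Of these, Tmem144, Diaph1 and Map3k5 were not DEG without mouse 21 (adjusted p = 0.0106, 0.016 and 0.0171). Over the 8 fits that each left out a mouse, Diaph1 was a DEG in 0. Map3k5 and Irak1bp1 were DEG in 1 each, and Gstm3 and Tmem144 in 2 each. Mouse 23 was the lowest kainate mouse in 6 of the 11 genes and mouse 21, the library that stood apart, in 1.

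The remaining upregulated DEG were Rassf8 (log2 fold change 0.85), Cnksr3 (1.57), the antisense lncRNA Far2os1 (2.52) and the crystallin gene Cryba4 (2.34). Over all 32 upregulated DEG, mouse 35 was highest in 13, mouse 26 in 8, mouse 23 in 7 and mouse 21 in 4, and mouse 21 was lowest in 22. Tmc6 and Lgals3bp lie 608 kb apart on chromosome 11, and Rgma and St8sia2 519 kb apart on chromosome 7. Just outside the thresholds, Hnrnpa3 (-0.35), Eftud2 (-0.30), Llgl1 (0.44), Igdcc4 (0.53) and Zfp37 (-0.39) had adjusted p-values of 0.00254 to 0.00633 in edgeR's test but folds under 1.5. In all, 8 genes had an adjusted p under 0.01 with a fold under 1.5.

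Neuronal function lists included no DEG. Median log2 fold changes were -0.078 for 24 glutamate receptor genes (-0.040 without mouse 34), -0.15 for 16 GABA-A receptor and chloride transport genes (-0.084 without mouse 35), -0.17 for 28 ion channel genes and -0.050 for 24 synaptic genes (-0.17 without mouse 21, -0.012 without mouse 35). All 4 kainate mice were nonetheless below all 4 saline mice in the summed CPM of glutamate receptor genes (4755 to 5272 against 5605 to 6416), GABA-A genes (2889 to 3298 against 3421 to 3657) and ion channel genes (4657 to 5101 against 5194 to 5698). Single genes lay wholly below the saline mice in 5 of 24, 5 of 16 and 7 of 28 members of these lists, against 5.26% of all tested genes. Gria2, an AMPA receptor subunit, was at 744 to 928 CPM after kainate and 1088 to 1290 CPM after saline (log2 fold change -0.48, adjusted p = 0.154). Snap25, a synaptic fusion protein, had a log2 fold change of -0.29 (adjusted p = 0.54). Oligodendrocyte and myelin genes were higher in mean in 18 of 18, 8 at an unadjusted p under 0.05 (9.18% of all tested genes), with a median of 0.39 and no DEG. Mbp, a myelin protein, had a log2 fold change of 0.34 (adjusted p = 0.599). Endothelial genes had a median of 0.19 (0.097 without mouse 26) and interneuron genes 0.27, or 0.090 without mouse 21, also with no DEG. Of the Wnt pathway, which patterns the dentate gyrus and maintains its stem cells, 2 of 27 ligand and receptor genes were higher and 3 lower at an unadjusted p under 0.05, and 4 of 32 effectors, antagonists and targets were higher and 2 lower, with no DEG, against 9.18% and 5.33% of all tested genes. Without mouse 21 the lower counts were 1 and 4.

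The same 43 genes were then placed beside the earlier and later days of the PIZ and beside the EZ. The 3 days have separate mice, kainate and saline, while the EZ libraries of day 7 come from the same 8 mice as the PIZ libraries. In the PIZ at day 3, where 7.12% of genes were upregulated and 1.57% downregulated, 22 of the 32 upregulated DEG and 8 of the 11 downregulated DEG were also called in the same direction. The 22 were 68.8% of the day 7 genes and 1.44% of the upregulated genes of day 3. At day 14, where 2 genes were upregulated (0.00935%) and 1 downregulated (0.00468%), only Tmc6 and Btg3 of the 43 were called. In the EZ at day 7, where 20.6% of genes were upregulated and 11.9% downregulated, 26 of the 32 and 6 of the 11 were called in the same direction. The median log2 fold change of the 32 upregulated DEG was 1.47 in the PIZ at day 3, 1.99 at day 7, 0.66 at day 14 and 2.41 in the EZ at day 7. Since the genes were chosen at day 7, a larger value there is in part set by the choice. For whole lists, the type I interferon medians were 2.10, 2.15 and 0.50 in the PIZ at days 3, 7 and 14 and 3.96 in the EZ at day 7. Mitosis genes had medians of 2.61, 0.96 and 0.62 in the PIZ and 3.28 in the EZ, and reactive astrocyte genes 2.16, 1.16 and 0.33 in the PIZ and 3.30 in the EZ. At day 14 the type I interferon and reactive astrocyte medians rested largely on kainate mouse 27. Those of the mitosis genes and of the 32 upregulated DEG rested on it in part. The summed CPM of type I interferon-stimulated genes was 238 in that mouse and 122 to 124 in the other 3, within the 101 to 130 of the saline mice. Reactive astrocyte genes were at 1888 CPM in mouse 27, against 690 to 785 in the others and 560 to 789 after saline, and mitosis genes at 60.2 CPM, against 35.3 to 39.1 and 22.5 to 35.6. Without mouse 27 the day 14 medians were 0.11 for type I interferon-stimulated genes, 0.094 for reactive astrocyte genes and 0.38 for mitosis genes, and that of the 32 upregulated DEG was 0.34 in place of 0.66. Tmc6 and Btg3 were also called at day 14 without that mouse.

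**Figure D3:**
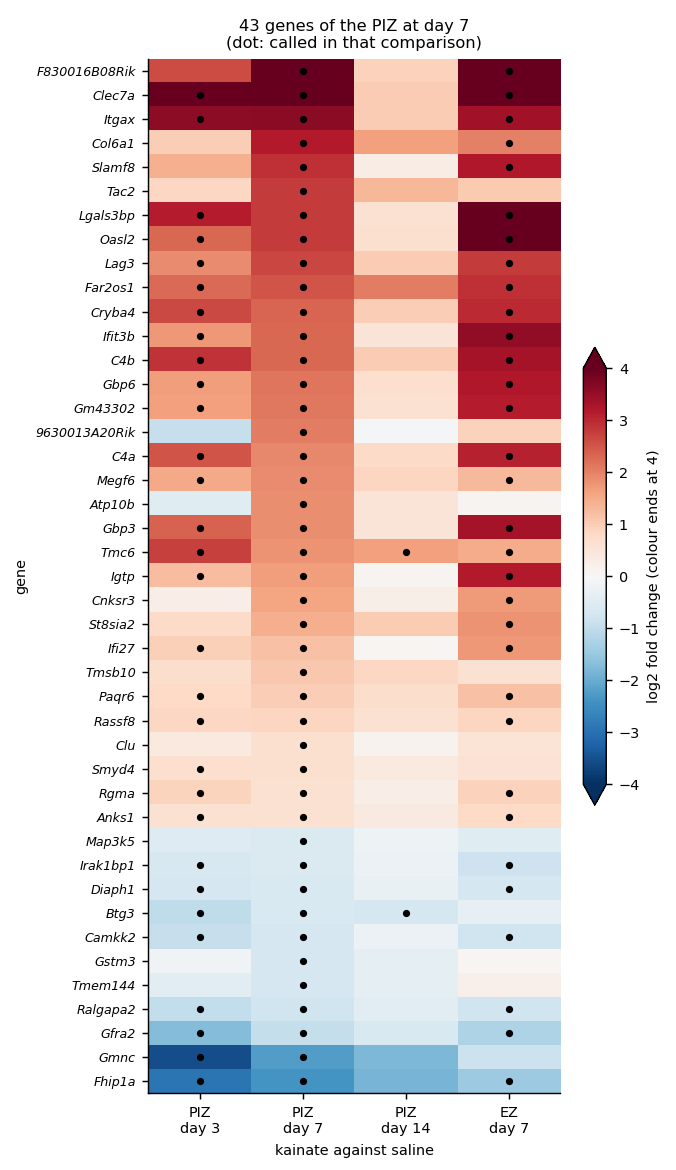
Log2 fold change, kainate against saline, of DEG of the PIZ at day 7 in the PIZ at days 3, 7 and 14 and in the EZ at day 7, with red above and blue below 0 and a dot where the gene was called in that comparison. Across their own rows, Atp10b, 9630013A20Rik and Tac2 are, like some other genes, deepest in colour in the day 7 PIZ column. At day 14 dots stand at Tmc6 and Btg3 only.

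Tests of the difference between days and sides singled out few of the 43. Between days 3 and 7 of the PIZ, the signed log2 fold change was higher at day 7 in 3 genes (0.0140% of those tested) and lower in 2 (0.00935%). Atp10b had log2 fold changes of -0.47 at day 3, 1.87 at day 7 and 0.53 at day 14, and the difference of day 7 from day 3 was 2.34 (SE 0.34, adjusted p = 3.97e-04). 9630013A20Rik had -0.92, 2.06 and -0.064 on those days, a difference of 2.98 (SE 0.49, adjusted p = 0.00237). The third gene with a higher signed value at day 7 was Abat, which breaks down GABA, at -0.74 on day 3 and 0.20 on day 7 (difference 0.94, SE 0.16, adjusted p = 0.00266). Aldh1l1, the folate enzyme used as an astrocyte marker, went from 1.90 on day 3 to 0.12 on day 7 (difference -1.78, SE 0.24, adjusted p = 1.34e-04), and Lgi4 from 1.14 to 0.19 (difference -0.95, SE 0.17, adjusted p = 0.00956). Neither the Abat nor the Lgi4 difference passed without mouse 21, nor without mouse 26, 33 or 34, and that of Lgi4 also not without mouse 23, 20 or 89. That of 9630013A20Rik did not pass without mouse 33 or 34. Between days 7 and 14 no gene passed in edgeR's test in either direction (0% of those tested), with 658 at an unadjusted p under 0.05, 1 called by DESeq2 and 3 by limma-voom with quality weights, and 3 passed in edgeR's test without mouse 27.

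Between the sides at day 7, the signed log2 fold change was higher in the EZ in 1498 genes (7.00%) and lower in 617 (2.88%). Without the libraries of mouse 21, 1 gene passed in place of these 2115. The count was 188 without mouse 35, 3752 without mouse 23, 3119 without mouse 26, and 221, 799, 149 and 654 without saline mice 89, 33, 20 and 34. With the mouse as a block, which pairs the sides of an animal, 2356 genes passed in edgeR, against 2115 without it, and 2531 passed in limma-voom, which changes the tool as well. Of the 43 DEG, 3 were among the 2115. Atp10b rose in the PIZ and had a log2 fold change of 0.12 in the EZ, a difference of -1.75 (SE 0.33, adjusted p = 0.00179). Gstm3 and Tmem144 fell in the PIZ, by 0.67 each on the log2 scale, and had 0.071 and 0.19 in the EZ, so that the sides differed by 0.74 for Gstm3 (SE 0.18, adjusted p = 0.00368) and by 0.86 for Tmem144 (SE 0.18, adjusted p = 0.00205). None of these 3 differences passed without mouse 21, that of Tmem144 also not without mouse 89, and that of Gstm3 not without mouse 35, 20, 34 or 89. For the other 40 the difference between sides did not pass, which does not show that the sides were alike. In none of the other 3 comparisons were 8 of the 43 called, namely Atp10b, 9630013A20Rik, Gstm3, Tmem144, Clu, Tac2, Map3k5 and Tmsb10. Of these, Clu in the EZ (0.56) and Map3k5 in the PIZ at day 3 (-0.53) and in the EZ (-0.49) had the same direction and an adjusted p under 0.01, and missed only the fold of 1.5.

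Within mice, the sides did not keep the same order. The summed CPM of the type I interferon-stimulated genes was 1343, 2631, 2887 and 1711 in the EZ of mice 23, 26, 21 and 35, against 293, 426, 233 and 592 in their PIZ. Mouse 21 was thus highest of the 4 kainate mice in the EZ and lowest in the PIZ. The complement list gave 1881, 2789, 7148 and 5332 in the EZ and 567, 712, 334 and 757 in the PIZ, with mouse 21 again at opposite ends. Mature granule cell genes were lowest in mouse 21 on both sides, at 967 in the EZ and 1024 in the PIZ. With 4 mice no relation between the sides was tested.

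**Figure D4:**
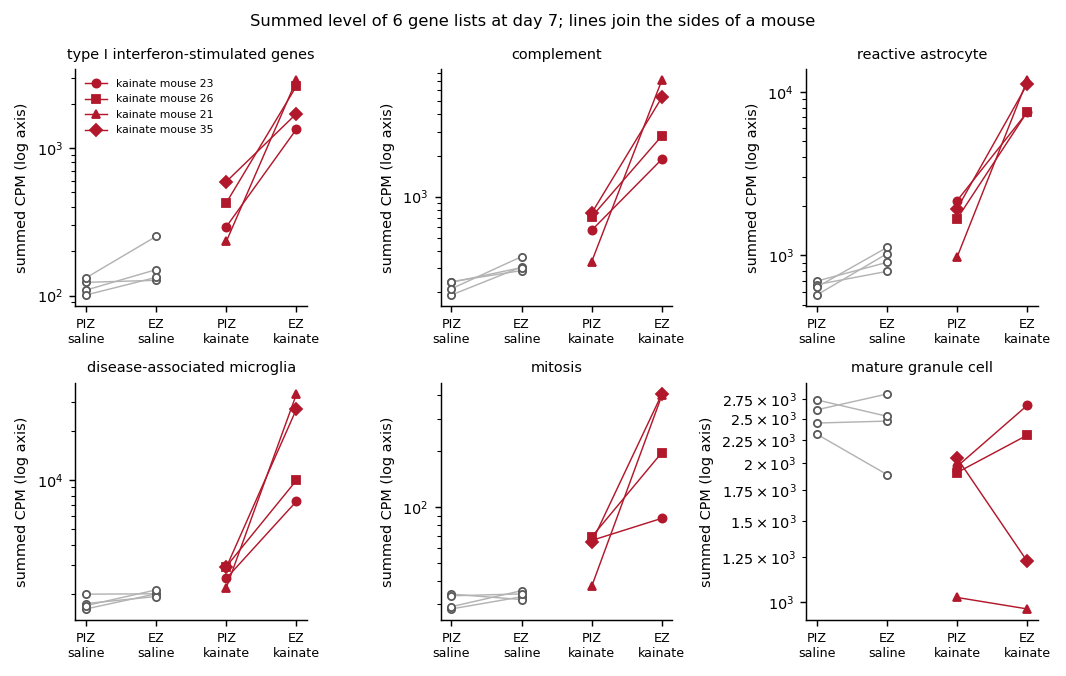
Summed CPM, on log axes, of 6 gene lists in the PIZ and EZ libraries of each day 7 mouse, with open circles for saline mice, a filled symbol for each kainate mouse and lines joining the sides of a mouse. All 4 kainate mice have more type I interferon-stimulated RNA in the EZ than in the PIZ, and mouse 21 is highest in the EZ and lowest in the PIZ.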

How the data were processed

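Gene counts of 48 dorsal dentate gyrus libraries from 24 mice were analysed, and the report uses the contralateral kainate and saline libraries of day 7, 4 mice each. Per the labels and the study's methods, the authors made the deposited counts from poly-A selected, stranded, paired-end libraries with fastp 0.20.1, HISAT2 2.2.1 on GRCm39 and featureCounts (Subread 1.6.4) on Gencode annotation, with multimapping reads counted at their primary alignment, which can misplace reads of close gene copies. RNA was extracted at the same time for all samples and the labels name no batch. The study's methods give an older age range than the sample records. The deposited table of raw counts was used as is, with no normalization by the authors.

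Here edgeR 4.0.16 in R 4.3.3 was fitted to all 48 libraries with 12 group means (side, injection and day), TMM scaling and its default filter, which left 21390 of the genes and 99.9% of the counts. Standard errors are the absolute log2 fold change divided by the square root of F, and CPM use TMM-scaled library sizes, with a prior count of 2 for log2 values. Intervals on counts cover counting error only. The sides of a mouse share a mouse number, so mice pair across sides, not across injections. Deviations of both sides of a mouse from their group means correlated at 0.00759 to 0.32 over the 8 mice, with a consensus correlation of 0.163. Within each of the compared PIZ groups of day 7, no 2 libraries agreed within sampling noise, and other pairs of libraries were not checked. The scripts were tested on simulated data.

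Values in all 8 libraries were to be given for 10 genes that rose and 5 that fell, taken by p, and for other DEG in a list, and, within lists, for called members and then the 2 with the largest mean CPM. Any DEG and the fixed cell type markers could be named besides, and other genes, or DEG given full values outside this rule, are said to be chosen after their values were seen. Promoters were to be printed for the 4 DEG of the interferon lists with the smallest p, leaving out chromosome 18. Some genes that the rule names are not reported here. The gene lists and the comparison itself were chosen with earlier results of these data known. Promoter sequences are from the GRCm39 reference, with the starts of canonical transcripts in the Gencode annotation. Alternatives were DESeq2 1.42.0, limma 3.58.1 (voom with quality weights or with the mouse as a block), fewer libraries in the fit, other scalings, filters and thresholds, and leaving out each day 7 mouse or, added later, mouse 27 of day 14.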

Additional observations from a re-analysis of the deposited data

Results flagged for a closer look

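With 184 groups of 4 examined for a sample far from the rest, 11 stood out by Dixon's test, and chance gives about 1 in 20, or 9.2. In 4 summed levels kainate mouse 21 was lowest: MHC class I presentation at 947 CPM (1168 to 1195 in the other kainate mice), MHC class II presentation at 226 CPM (378 to 410), mature granule cell genes at 1024 CPM (1910 to 2053) and mitosis genes at 37.5 CPM (64.6 to 69.2). On the log2 CPM scale, Anks1 was lowest in kainate mouse 21 at 5.24 (5.53 to 5.58 in the others), Gstm3 was lowest in kainate mouse 23 at 2.14 (2.52 to 2.60), and 9630013A20Rik was highest in kainate mouse 23 at 3.70 (3.55). Among saline mice, Lag3 was lowest in mouse 34 at 2.10 (2.40 to 2.44), and F830016B08Rik was highest in mouse 20 at -2.32 (-3.46 in the others, which had no count). In the PIZ at day 14, kainate mouse 27 was highest in the summed levels of type I interferon-stimulated genes, at 238 CPM (122 to 124 in the other kainate mice), and of reactive astrocyte genes, at 1888 CPM (690 to 785).

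The kainate effect also differed between comparisons, by the test of the difference itself in edgeR. Between day 7 and day 3 of the PIZ the log2 difference was 2.34 for Atp10b, 2.98 for 9630013A20Rik, 0.94 for Abat, -1.78 for Aldh1l1 and -0.95 for Lgi4. Between the EZ and the PIZ at day 7 it was -1.75 for Atp10b, 1.52 for Aldh1l1 (adjusted p = 0.00129), 0.74 for Gstm3 and 0.86 for Tmem144. Other genes named from the gene lists that passed between the sides were Apoe (2.11), C1qb (2.52), Csf1r (1.75), Ctsb (2.47), Ctss (2.07), H2-Q4 (2.11), Mki67 (2.69), P2ry12 (1.28), Serpina3n (2.77) and Snap25 (-1.24). None of these differences between the sides, Aldh1l1 included, passed without mouse 21.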

How the results depend on the processing

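All 43 DEG kept their direction under every alternative in which they were tested. Their number did not keep. In the PIZ at day 7 DESeq2 called 195 (161 up, 34 down; 41 of the 43 among them), limma-voom with quality weights 822 (691 up, 131 down; 40 of the 43), a fit of the PIZ libraries only 591 (520 up, 71 down; 42 of the 43) and a fit of the 8 compared libraries 154 (124 up, 30 down; 24 of the 43). An adjusted p under 0.05 gave 229 (182 up, 47 down), a test against a fold of 1.5 (glmTreat) 4 (3 up, 1 down), library size only 56 up and 5 down, no filter 7 down, and the mouse as a block, pairing the sides, 24 (15 up). Leaving out each mouse gave 7 to 76 (3 to 60 up, 4 to 16 down), with 76 without mouse 21 and 7 to 13 without a saline mouse. DEG called under all 11 alternatives that leave out no mouse were Tmc6, Lag3 and Fhip1a, and 12 were called under all but glmTreat. For the difference between sides, 4387 passed at an adjusted p under 0.05, 5126 with quality weights, 1159 in the compared groups only and 0 with glmTreat, and 1 to 3752 when a mouse was left out. For day 7 against day 3, 33 passed in DESeq2, 16 at an adjusted p under 0.05, 141 with quality weights, 206 in the PIZ libraries, 158 in the compared groups and 0 with glmTreat, and 2 to 9 when a mouse was left out (3 without mouse 21, 8 without mouse 23, 9 without mouse 35, 2 without mouse 33 or 34). For day 14 against day 7, 1 passed in DESeq2, 3 with quality weights and 1 in the PIZ libraries. Leaving out kainate mouse 27 of day 14, an alternative chosen after seeing the data, gave 3 for day 14 against day 7 and lowered the day 14 medians of type I interferon-stimulated, reactive astrocyte and mitosis genes. The cause of these differences was not tested. Genes at few counts, such as F830016B08Rik and Slamf8, are limited by depth.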

Other observations

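Among the gene groups of the PIZ at day 7 described here, the only DEG was Tac2. Of all tested genes, 9.18% were higher and 5.33% lower at an unadjusted p under 0.05. Of 14 glucocorticoid response genes 5 were lower at that level, or 2 without mouse 21, and none was higher, with a median log2 fold change of -0.19 (-0.085 without mouse 26), and of 16 circadian clock genes 4 were lower and 1 higher, with a median of -0.21 (-0.13 without mouse 89). Klf9, a glucocorticoid-induced transcription factor, was at 160 to 233 CPM after kainate and 244 to 302 CPM after saline, without overlap (log2 fold change -0.42, adjusted p = 0.331). All 13 mitochondrially encoded genes had a lower mean after kainate, 3 at an unadjusted p under 0.05, with a median of -0.24, or -0.14 without mouse 89. Cholesterol synthesis genes (median 0.044, and -0.11 to 0.15 when a mouse was left out) and stress response genes (0.22) had no gene with an adjusted p under 0.05.

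Markers of neighbouring regions gave no common direction. CA1 pyramidal genes had a median of 0.0055 and CA3 pyramidal genes one of -0.16 (-0.29 to 0.31 and -0.30 to -0.014 when a mouse was left out), with no member at an unadjusted p under 0.05 in either list. Of genes of the subiculum, cortex and thalamus, 6 of 14 were higher and 1 lower at that level, against 9.18% and 5.33% of all tested genes, with a median of 0.39. Oligodendrocyte precursor genes had a median of 0.11 (0.18 without mouse 35) and pericyte genes one of 0.20, with no DEG.

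Neuropeptide and neurotrophin genes had 1 DEG, Tac2, among 25, with 3 higher and 3 lower at an unadjusted p under 0.05 (3 and 2 without mouse 21), and a median of 0.36. Of 22 immediate early genes 3 were higher at that level and none was a DEG.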
